A study of Mus musculus with 2 samples.

Results

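The Sfmbt2-type repeat microRNAs are a group of near-identical hairpin genes in the mouse, named Mir297, Mir466, Mir467 and Mir669. Members were chosen by symbol alone: every microRNA gene of GENCODE M21 called by 1 of these 4 names followed by a letter, with or without a copy number. This gave 79 of the 2202 microRNA genes in the tables: 5 Mir297, 27 Mir466, 17 Mir467 and 30 Mir669 genes. Of these, 70 lie inside the gene Sfmbt2 on its strand and 9 lie elsewhere. Expression was measured by microRNA-seq in adrenal glands of female B6CASTF1/J mice, a hybrid of the strains C57BL/6J and CAST/EiJ, at an age of 10 days. There is 1 group of 2 libraries, replicate 1 from the animal numbered 3 and replicate 2 from the animal numbered 4. The labels give both animals the same donor entry and mention no treatment or engineered allele. Replicate 1 had 2023410 and replicate 2 had 3208821 reads assigned to microRNA genes, and the spread between them may be technical in part.

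Sfmbt2 encodes a Polycomb group protein and is imprinted in the mouse, where the paternal copy is active in the early embryo and the placenta. The large microRNA cluster in its intron is a rodent feature, best known from placenta and early embryonic cells. A microRNA gene is transcribed as a hairpin, cut to a short mature strand, and guides repression of messenger RNAs mainly through its seed, bases 2 to 8. Many copies share mature sequences, so a read can often not be traced to 1 of them. The deposited counts leave out reads with several alignments, which decides what can be said of each copy. Parental alleles are not separated in these counts.

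Mature sequences from RefSeq (GRCm38.p6) were matched for 8 of the 79 members. They are shown for the alternating repeats that members of the group carry. Capitals mark the seed.
mmu-miR-466j: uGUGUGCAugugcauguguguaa
mmu-miR-466k: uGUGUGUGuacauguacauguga
mmu-miR-467h: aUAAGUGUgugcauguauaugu
mmu-miR-669n: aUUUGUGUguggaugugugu
mmu-miR-466i-3p: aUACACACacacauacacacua
mmu-miR-466q: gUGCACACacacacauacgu
mmu-miR-467f: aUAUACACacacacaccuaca
mmu-miR-467g: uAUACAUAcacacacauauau
The first 4 sequences are built on repeats of UG and the last 4 on the complementary repeats of CA. All 8 seeds differ. All 8 belong to members outside Sfmbt2, and none of these members had a count in either library. Of the 8 mature sequences, 5 occur nowhere else in the annotated transcripts. The sequence of mmu-miR-467h occurs in 3 annotated microRNA hairpins.

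The repeats run through the whole group. A stretch of 3 repeats of TG (TGTGTG, searched on the sense strand of the hairpin) was present in 74 of 79 members (93.7%). It was present in 295 of the 2123 other microRNA genes (13.9%). The longer stretch of 4 repeats (TGTGTGTG, which holds the shorter motif) was in 51 members (64.6%) and in 141 other genes (6.64%). A match describes the letters of these hairpins only.

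The members inside Sfmbt2 span 51617 bases of chromosome 2, from 10466663 to 10518279 of mm10, all on the plus strand. Sfmbt2 itself runs from 10370510 to 10595253. The annotation has 2 transcripts that span the array, of 23 exons each, and all 70 members lie in 1 intron of both, intron 10 of the one and intron 11 of the other. No member overlaps an exon of any annotated Sfmbt2 transcript. Neighbouring hairpins are separated by a median of 209 bases. The 10 numbered copies of Mir467a follow each other at a median distance of 2462 bases, and the 12 copies of Mir669a at 2457 bases, as in a tandem array. The 79 hairpins hold 61 distinct sequences. The largest set of identical hairpins consists of 9 Mir669a copies (Mir669a-4 to Mir669a-12), the next of 6 Mir467a copies, and 24 members in all have an identical twin.

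Copies that can be counted uniquely were found by cutting each hairpin into windows of 22 bases, about the length of a mature microRNA, and searching each window exactly, on both strands, in all other annotated hairpins and transcripts. A member was called uniquely countable where at least 1 window occurred nowhere else. This held for 47 of 79 members, against 85.1% of all 2202 microRNA genes. The median share of such windows per hairpin was 29.9% over the members and 97.3% over all microRNA genes. Intergenic and intronic sequence was not searched, so 47 is an upper bound, for members inside and outside Sfmbt2. The bound holds for the reference sequence, since no separate sequence of the CAST/EiJ alleles was searched.

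Inside Sfmbt2, 38 of 70 members were uniquely countable. Outside it, all 9 were by the same search. A window of its own need not lie in the mature strand of a hairpin. Mature sequences were matched for 8 of these 9, and for 5 of them that sequence occurred nowhere else. The 32 members with no window of their own were all inside: 10 of the 14 Mir467 genes there, 13 of the 29 Mir669 genes and 9 of the 22 Mir466 genes. These are the 10 Mir467a copies, 11 of the 12 Mir669a copies with Mir669p-1 and Mir669p-2, and both Mir466c copies, Mir466e and all Mir466b copies except Mir466b-2 and Mir466b-3. All 5 Mir297 genes inside Sfmbt2 had windows of their own, at a median share of 29.9%. When places with 1 mismatch were also treated as matches, 40 members remained countable, 31 inside and 9 outside.

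For members without a window of their own, a count of 0 is largely built in, because reads that fit several copies were left out. None of these 32 members had a count in either library, and this sets no limit on their expression. Of the 47 members with such windows, 14 had at least 1 count in either library, or 14 of 79 members, against 35.9% of all microRNA genes. With replicate 1 alone the number was 9, and with replicate 2 alone 13. All 14 were inside Sfmbt2, so 100% of the members' counts came from there, in both libraries. The other 33 had no count, 24 of them inside and 9 outside. For these, 0 counts allow up to 1.48 CPM (counts per 1000000 assigned counts of the library) in replicate 1 and up to 0.935 in the deeper replicate 2, for reads from their own windows and counting error only. Shares of own windows overlapped between the 14 counted members (21.2% to 96.9%, median 58.1%) and the 33 uncounted ones (13.2% to 100%, median 41.2%). Elsewhere in the tables, 5 microRNA genes without such a window were counted, so the search does not describe the authors' alignment exactly.

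Along the intron, the counted members lay at both ends of the array. The limits of the following stretches were chosen after the values were seen. From the first member up to Mir467c, 5 of 13 members were counted, with 113 and 535 counts. From Mir467e to the last member, 8 of 19 were counted, with 2241 and 4316 counts. Between Mir467c and Mir467e lie 38 members, of which 31 have no window of their own. That stretch held 0 counts in replicate 1 and 1 count in replicate 2, from Mir467b.

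**Figure D1:**
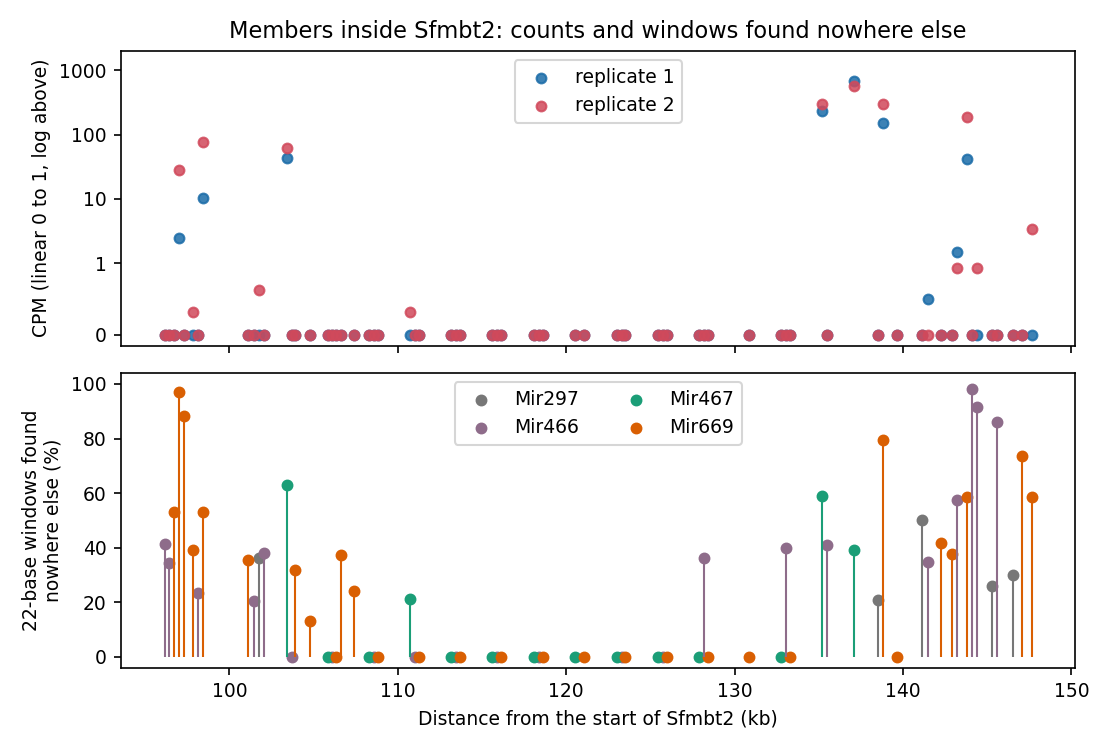
The 70 members inside Sfmbt2 by distance from the start of the gene in kb; the upper panel shows CPM in each library and the lower panel the share of 22-base windows found nowhere else, coloured by name family. Counted members lie at both ends, and most members in the middle of the array stand at 0% in the lower panel.

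The 9 members outside Sfmbt2 are Mir466j, Mir466i, Mir466f-4, Mir466q, Mir466k, Mir467f, Mir467g, Mir467h and Mir669n. They are spread over chromosomes 3, 5, 9, 10, 11 and 13. Mir466q lies on the strand of the kinase gene Tnik, at 28419943 to 28420018 of chromosome 3. Mir467f (chromosome 11, 69635400 to 69635519) lies opposite to Fxr2, and Mir466i (chromosome 13, 17747473 to 17747593) opposite to Cdk13. All 9 had a count of 0 in both libraries.

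Together the members took 2354 counts in replicate 1, which is 0.116% of assigned counts (exact Clopper-Pearson 95% interval 0.112 to 0.121%). In replicate 2 they took 4852 counts, or 0.151% (0.147 to 0.156%), a mean of 0.134% ± 0.0247 (SD, n = 2). The intervals do not overlap, but they cover counting error only. Reads with several alignments numbered 1318731 in replicate 1 and 2329968 in replicate 2. How many of those came from these hairpins was not measured, so the members' counts are a floor for the group and no total. The shares are of assigned counts, which also leave out such reads of all other sequences, so they are no floor.

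The counted members fell into a few abundant copies and a tail. Statements on which copy was higher hold among counted copies only. The level of the 32 copies without a window of their own is unknown. Such statements compare uniquely counted reads and not full levels. Reads from the shared windows of a counted copy were left out too, and copies differ in their share of own windows. That share was 39.1% for Mir467d and 96.9% for Mir669e. At 10 CPM or more in both libraries stood 6 members, against 13.7% of all microRNA genes, and a further member, Mir669e, reached 10 CPM in replicate 2 only. These 7, which are 3 Mir467 and 4 Mir669 genes, held 99.8% and 99.6% of the members' counts. No Mir297 or Mir466 gene was among them.

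Mir467d, at 10507630 to 10507714, had the highest counted level, at 679 and 561 CPM in replicates 1 and 2, a mean of 620 CPM ± 83.4 (SD, n = 2). By these counts it ranked 112 among all microRNA genes in both libraries, though most of those genes have a larger share of own windows. Of its 64 windows, 25 occur nowhere else, 19 of them nearer to the 5' end of the hairpin. Mir467e, at 10505721 to 10505807, stood at 233 and 296.7 CPM (265 ± 45.2). It ranked 158 and 147, and 39 of its 66 windows are its own. Mir467c, at 10473931 to 10474027 at the other end of the array, stood at 43.0 and 62.0 CPM (52.5 ± 13.4). The order Mir467d, Mir467e, Mir467c was the same in both libraries, with no overlap between neighbours. Mir467b, the remaining Mir467 gene with a window of its own inside Sfmbt2, had 0 counts and 1 count.

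Mir669c, at 10509296 to 10509404, had the highest level of the counted Mir669 genes, at 153 and 298 CPM (226 ± 102, SD, n = 2). Mir669o, at 10514300 to 10514395, stood at 41.02 and 184 CPM (113 ± 101). The ranges of Mir669c and Mir669o over the libraries overlap, but Mir669c was the higher within each library. Mir669l, at 10468971 to 10469068, was counted at 10.4 and 75.4 CPM (42.9 ± 46.0), and Mir669e, at 10467495 to 10467613, at 2.47 and 28.4 CPM (15.4 ± 18.3). The ranges of Mir669l and Mir669e overlap as well, again with 1 order within both libraries. Replicate 2 was the higher in Mir669c, Mir669o and Mir669l. It was also the higher in Mir669e, whose direction was fixed by its inclusion through replicate 2 alone. Mir669e has the largest share of own windows of the counted members, 95 of 98, and the lowest mean of the 7. By mean CPM the order over both families was Mir467d, Mir467e, Mir669c, Mir669o, Mir467c, Mir669l and Mir669e, and from Mir467e down the ranges of neighbours overlapped.

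The remaining 7 counted members were near the limit of the libraries. Mir669h had 0 and 11 counts and Mir466n had 3 counts in each library. Mir466h had 0 and 3 counts, Mir297a-2 had 0 and 2 counts, Mir669d and Mir467b each had 0 counts and 1 count, and Mir466d had 1 count and 0 counts. The 27 Mir466 genes together thus had 4 and 6 counts and the 5 Mir297 genes 0 and 2. No member had a read on the opposite strand, and counting irrespective of strand gave the same counts for every member.

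**Figure D2:**
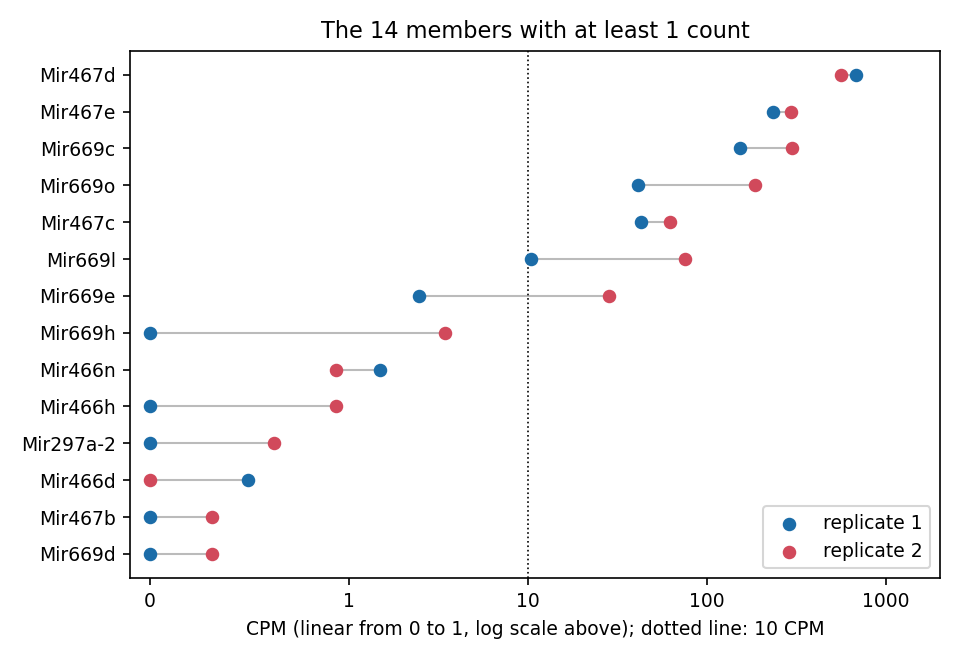
CPM of the 14 members with a count, 1 point per library, on an axis that is linear from 0 to 1 and logarithmic above. Mir467d is the highest of these in both libraries, and Mir669c, Mir669o and Mir669l show wider gaps between the points than Mir467d, Mir467e and Mir467c. So does Mir669e, which reached 10 CPM in replicate 2 only.

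The make-up of the members' counts, from uniquely counted copies alone, differed between the libraries. Mir467 genes took 82.0% of them in replicate 1 and 60.8% in replicate 2, with exact 95% intervals of 80.4 to 83.6% and 59.4 to 62.2%. Mir669 genes took 17.8% (16.3 to 19.4%) and 39.0% (37.6 to 40.4%), a mean of 28.4% ± 15.0 (SD, n = 2). Within this, Mir467e held a steady share at 20.0% and 19.6%, while Mir467d went from 58.3% to 37.1%. In CPM, Mir467 genes stood at 954 and 920, and Mir669 genes at 207 and 590. The intervals of these shares cover counting error only, not the spread between animals or library preparations.

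**Figure D3:**
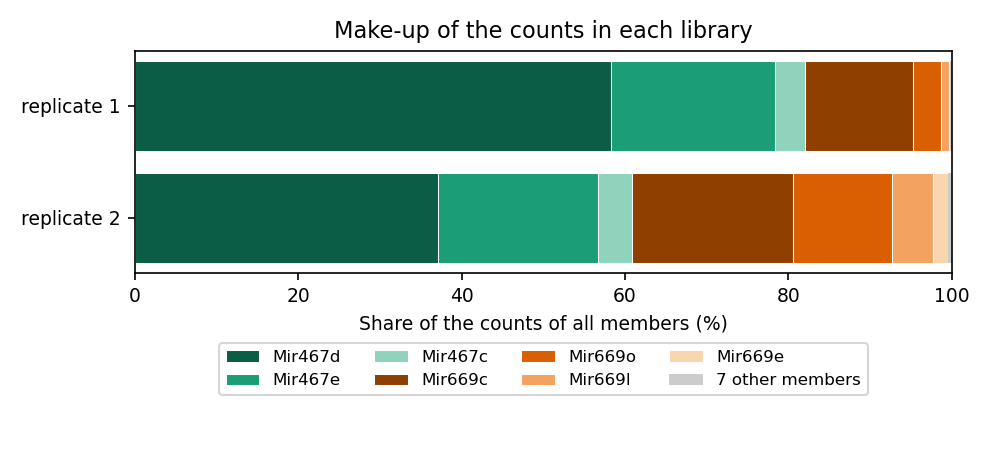
Share of the members' counts held by each of the 7 abundant members and by the 7 other counted members, in percent, 1 bar per library. The Mir467 genes (green) fill 82.0% of the bar of replicate 1 and 60.8% of that of replicate 2, and the Mir669 genes (orange) take up most of the difference.

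Differences between the libraries were tested for all 329 microRNA genes with at least 10 CPM in either library. Each gene's counts were compared by the exact binomial test (two-sided, given their sum), with library sizes scaled by TMM and p-values adjusted by Benjamini-Hochberg over the 329 genes. The test sets 2 libraries of 1 group against counting error, so it compares no conditions. Mir669e was tested only because of its level in replicate 2, so it is described without its p. The 6 members at 10 CPM or more in both libraries all passed the test at 0.05, with 5 higher and 1 lower in replicate 2. Over all measured genes, 37.7% were higher and 36.5% lower, so passing by itself is common. Log2 ratios are those of replicate 2 over replicate 1 after TMM scaling, with 1 CPM added to both values. Their median was 0.78 over these 6 members and -0.01 over all measured genes. The sets were filtered differently, since the 329 genes needed 10 CPM in either library and the 6 members in both. In all, 302 microRNA genes reached 10 CPM in both libraries.

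All 3 Mir669 genes among the 6 were higher in replicate 2. Mir669l had a log2 ratio of 2.79 (exact 95% interval without the added CPM 2.26 to 3.63, adjusted p = 1.8e-30). Mir669o had a ratio of 2.19 (1.88 to 2.57, adjusted p = 2.0e-54). These genes held ranks 6 and 12 among the 329 ratios counted from the top. Mir669c, the highest of the counted Mir669 genes, had a ratio of 1.00 (0.82 to 1.20, adjusted p = 7.4e-29). Mir669e, with 5 and 91 counts, had a ratio of 3.12, whose direction its selection fixed.

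Of the 3 Mir467 genes, 2 were higher and 1 was lower. Mir467c was higher in replicate 2 with a log2 ratio of 0.57 (0.21 to 0.96, adjusted p = 0.0025), and Mir467e with 0.40 (0.24 to 0.56, adjusted p = 1.5e-06). Mir467d was lower, at -0.23 (-0.33 to -0.12, adjusted p = 2.1e-05). Without Mir669e, the ratios of the Mir669 genes ran from 1.00 to 2.79 and those of the Mir467 genes from -0.23 to 0.57. This division was seen in the data and was not tested. Over all 329 genes the SD of the log2 ratios was 1.01, and 22.2% of genes reached 1 log2 unit in either direction.

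**Figure D4:**
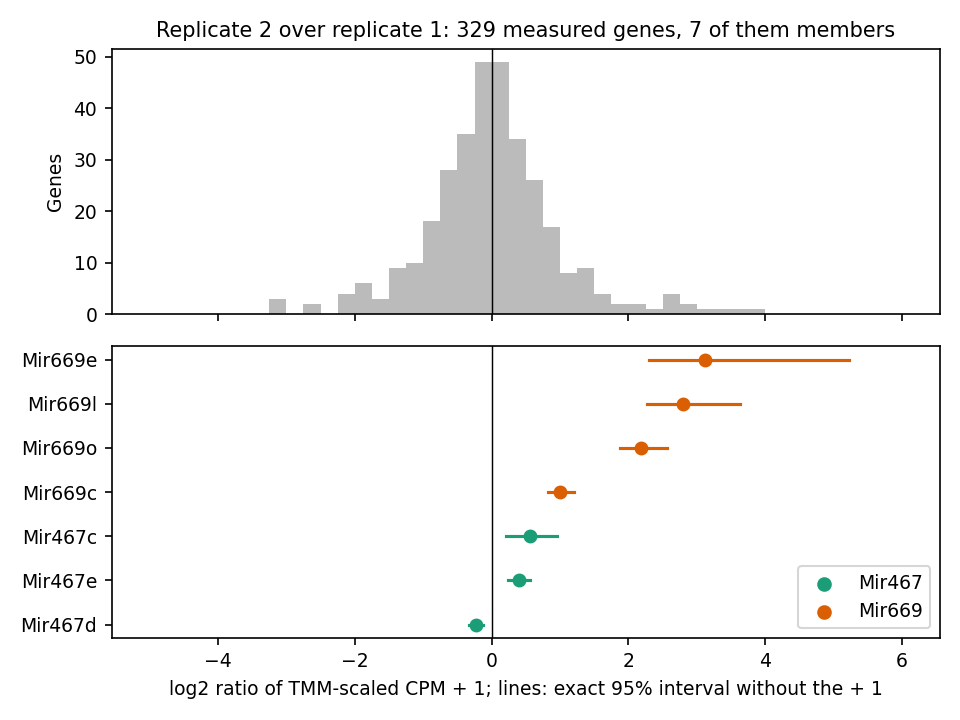
Upper panel, histogram of log2 ratios of replicate 2 over replicate 1 for the 329 measured microRNA genes; lower panel, the 7 measured members with exact 95% intervals. Mir669c, Mir669o and Mir669l lie from 1.00 to 2.79 and the Mir467 genes from -0.23 to 0.57; Mir669e, at 3.12, was included only through its level in replicate 2.

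Along the intron the 7 genes stand in the order Mir669e, Mir669l, Mir467c, Mir467e, Mir467d, Mir669c and Mir669o. Mir669e and Mir669l start 1.48 kb apart and had log2 ratios of 3.12 and 2.79. Selection through replicate 2 fixed the direction of Mir669e, so no likeness of these neighbours is read from it. Mir669l and Mir467c start 4.96 kb apart and had ratios of 2.79 and 0.57. Mir467c and Mir467e, with 31.8 kb between their starts, had ratios of 0.57 and 0.40. At the far end, Mir467d starts 1.91 kb after Mir467e and had a ratio of -0.23. Mir669c starts a further 1.67 kb on and had a ratio of 1.00, and Mir669o a further 5.00 kb on with 2.19. Whether position bears on these ratios was not tested. GC content ran from 34.7% to 42.9% over the hairpins of the 4 Mir669 genes and from 36.8% to 42.4% over those of the 3 Mir467 genes, and its part was not tested either. Counts are per hairpin, so 5' and 3' products of these genes are not told apart.

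The tissue label was set against marker microRNAs. All 3 neuroendocrine genes of the adrenal medulla (Mir375, Mir7b, Mir137) were at 10 CPM or more in both libraries, with sums of 28006 and 34779 CPM. Of the markers of pluripotent cells and trophoblast, where this cluster is best known, 10 were matched by symbol. Of these 10, 3 reached 10 CPM in both libraries, with sums of 100.3 and 151 CPM and Mir367 at 0. The sums leave out Mir292, which was listed as Mir292a and so not matched. It stood at 28.7 and 35.8 CPM. Levels of markers of other cell types differed between the libraries as well. Mir126a of endothelium stood at 177728 and 47927 CPM, Mir122 of liver at 26733 and 9284 CPM, and the leukocyte genes Mir142 and Mir223 summed to 563 and 1287 CPM. Sums were 28429 and 39314 CPM for smooth muscle (2 of 2 genes at 10 CPM or more in both libraries), 594 and 290 CPM for red blood cells (2 of 2), and 349.9 and 117 CPM for kidney (2 of 2). For striated muscle (1 of 4) the sums were 11198 and 4488 CPM, nearly all from Mir206 at 11177 and 4480 CPM. Of the other listed muscle genes, Mir133b stood at 17.8 and 5.92 CPM, Mir1a-2 at 2.97 and 1.56 CPM, and Mir1a-1 at 0. Only 49 of 56 windows of Mir1a-1 and 44 of 51 of Mir1a-2 are their own. Reads from their shared windows were left out, so these low values set no upper limit on either gene. The part of cell makeup in the members' differences was not tested, and fewer cells of a type cannot be told apart from less RNA per cell in whole glands.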

How the data were processed

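MicroRNA-seq was analysed in 2 adrenal gland libraries of 1 group. Deposited are unnormalized counts of reads for each microRNA gene and library, on mm10 and GENCODE M21 per the text deposited with them. The aligner and the counting program were not given in the sources used here. The tables hold 3 columns, by their values reads irrespective of strand, on the gene's strand and on the opposite strand. The second was used. The 4 summary lines stayed out of totals. In replicates 1 and 2, 38.3% and 37.5% of reads were assigned, and 25.0% and 27.2% had several alignments and were not counted. All 2202 identifiers matched M21.

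CPM was computed over assigned counts, so that 1 count equals 0.494 and 0.312 CPM in replicates 1 and 2. Levels were not divided by gene length, since the labels give RNA sizes below 30 bases. Intervals and limits at 0 (3 counts) cover counting error only, since no molecular identifiers are named. The libraries were not 1 library deposited again (chi-square 510405 on 437 degrees of freedom). TMM factors came from edgeR 4.0.16, alternative size factors from DESeq2 1.42.0 (R 4.3.3), and tests from SciPy 1.17.1 (Python 3.11.15). The library test and the window search were tested on simulated data. Windows were searched in the M21 transcripts, without genes that overlap the hairpin's own locus. A genome sequence, which the plan foresaw where given, was not used here.

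Named were all members at 10 CPM or more in either library, up to 3 leading members per name family, other microRNA genes inside Sfmbt2, and those left out for want of a letter. Members, lists and tests were chosen with earlier results of these data known. Alternatives covered strand, denominator, floors, window length and matching, normalization, pseudocount and single libraries.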

Additional observations from a re-analysis of the deposited data

How the results depend on the processing

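Each replicate carries its own number within 1 group. No paired analysis was possible because there is a single group. The members' mean share of counts was 0.134% and rose to 0.179% irrespective of strand, where fewer reads were assigned in all and the members' own counts were identical, and fell to 0.0696% with all aligned reads as denominator. It was 0.116% to 0.151% with either library left out. At 100 CPM in both libraries 3 members were detected in place of 6. Members with at least 1 count numbered 9 without replicate 2 and 13 without replicate 1, in place of 14. Uniquely countable members numbered 47 with windows of 18, 20 or 24 bases and with microRNA hairpins alone as the searched sequence, an alternative chosen after seeing the data. Only 1 member, Mir669n, was countable in every window, and 5 by RefSeq mature sequences, where only 8 members could be matched. With a floor of 100 CPM in either library, 4 members were tested and all 4 differed between the libraries. Of these, Mir669o reached 100 CPM in replicate 2 only. At 10 CPM in either library 7 members differed, among them Mir669e, which was tested only through its level in replicate 2. The 7 log2 ratios, of which selection fixed the direction of Mir669e, kept their direction in all 35 comparisons. These used library totals, DESeq2 size factors, pseudocounts of 0.5 and 5 CPM, and counts irrespective of strand. The 6 members other than Mir669e still passed the exact binomial test with library totals, DESeq2 size factors and counts irrespective of strand. Pseudocounts do not enter that test. The pseudocount moved low members most: Mir669e stood at 2.19 with 5 CPM added. Reads shared between copies were not counted, and replicate 1 held only 5 counts of Mir669e and 21 of Mir669l.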

Other observations

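Sfmbt2 holds 48 further microRNA genes with predicted-gene symbols, which the naming rule does not take. Of these, 44 of 48 (91.7%) hold 3 repeats of TG, against 93.7% of members, but 7 of 48 (14.6%) hold 4 repeats, against 64.6% of members. In all, 26 of 48 have at least 1 window of 22 bases found nowhere else. Only 3 of them were counted. Gm22072 had 1 count in replicate 1 and 4 in replicate 2, Gm25263 had 0 and 2, and Gm22239 had 0 and 1.

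The rule also leaves out Mir466 and Mir297-1, whose names lack a letter. Mir466 lies inside Sfmbt2 between Mir467d and Mir669c, both abundant, and Mir297-1 lies on chromosome 7. Each has 22 windows of its own, and neither had a count in either library.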
